A study of Homo sapiens with 10 samples.

Results

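The interferon system was followed through 42 genes in cells of the human Burkitt's lymphoma line ST486 after depletion of the serine/threonine kinase STK38. The list held 14 receptors, receptor kinases and transcription factors and 28 interferon-stimulated effectors. A gene was followed through a probe set of the Affymetrix HG-U95Av2 array whose annotation names that gene and no other, and where a gene had several, the one with the highest mean over all 10 arrays was taken as its main probe set. This gave 40 of the 42 genes, out of 8226 genes with a probe set of their own on the array; STAT2 and IFI30 had none under this rule and were not analysed here. The list was drawn up with earlier results of these data known and may have been shaped by them. It is therefore described by its counts and its median and gets no test as a list. All cells carried a lentiviral short hairpin RNA (shRNA) vector. The 5 arrays of the STK38 shRNA group came from cells that had received a hairpin against STK38, and the 5 arrays of the non-target shRNA group from cells with a non-target control hairpin, both at 60 h after transduction. The STK38 group rests on 1 hairpin sequence, so any off-target effect of it cannot be told apart from STK38 depletion. The labels do not say whether the replicates were separate cultures, so p-values speak only of array-to-array spread, possibly technical.

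Interferons are cytokines that cells release on sensing viral nucleic acid. Type I interferons bind the receptor of IFNAR1 and IFNAR2, which carries the kinases TYK2 and JAK1, and interferon gamma binds that of IFNGR1 and IFNGR2, which carries JAK1 and JAK2. The kinases phosphorylate STAT proteins; STAT2 acts with the DNA-binding subunit IRF9 at interferon-stimulated response elements (ISREs), and STAT dimers act at gamma-activated sites (GAS elements). The induced genes code for sensors and nucleases of viral RNA, membrane proteins that hinder entry and release of virus, GTPases, the ubiquitin-like modifier ISG15 and proteins of nuclear bodies. B cells express much of this machinery, and several IRF proteins also direct B cell differentiation.

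Values are log2 expression values as deposited, and a difference is the STK38 shRNA mean minus the non-target shRNA mean. STK38 itself was at 2.83 ± 0.21 in the STK38 shRNA arrays and at 5.02 ± 0.22 in the non-target arrays (SD, n = 5 each), without overlap, and its other 2 probe sets were called lower as well. Array backgrounds, taken from control probe sets for other species or the reverse strand, lay between 2.36 and 2.66. STK38 shRNA replicate 4 stood apart: it correlated at 0.982 on average with the other STK38 shRNA arrays, and its upper quartile was 3.54, where the other arrays lay between 3.91 and 4.02. Of 8 B cell markers measured, 6 (MS4A1, CD79A, CD79B, CD22, BLK and CD72) were above background on every array, and PAX5 and CD37 on 0. Of these 6, CD79A, a chain of the B cell receptor, was called higher, by 0.49 (limma adjusted p = 0.000689), and 0 were called lower; the median difference was -0.14. Of 9 monocyte and macrophage, 11 T and NK cell and 9 fibroblast and epithelial markers measured, 4, 1 and 5 passed the filter on dim probe sets, and of these 0 were called by limma and 0 had an unadjusted p under 0.05. Among them KRT8 was above background on all 10 arrays; CD14, LYZ, CD3D and CD3E were above it on 0. In bulk RNA, fewer cells expressing a gene and less RNA per cell cannot be told apart.

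Most effectors that were called were higher with the STK38 shRNA, and receptors and factors were called in both directions. Of the 40 genes measured, 4 (IFNAR1, MX1, IFITM2 and IFI44) were too dim to be tested, with a mean under the 40th percentile of all probe sets. Of the 36 tested, 16 were called higher and 4 lower (limma, Benjamini-Hochberg adjusted p under 0.05 over all 7535 probe sets tested). Of all probe sets tested, 29.9% were called, 14.1% higher and 15.8% lower. Among the 24 effectors tested, 14 were called higher and 2 lower, with a median log2 difference of 0.35, against 0.018 over all probe sets tested. Among the 12 receptors and factors tested, 2 were called higher and 2 lower, with a median of 0.14. The groups did not overlap at 13 members with a higher and 2 with a lower level in the STK38 shRNA arrays. Of all probe sets tested, 22.1% did not overlap: 9.33% were higher and 12.8% lower in the STK38 shRNA arrays.

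**Figure D1:**
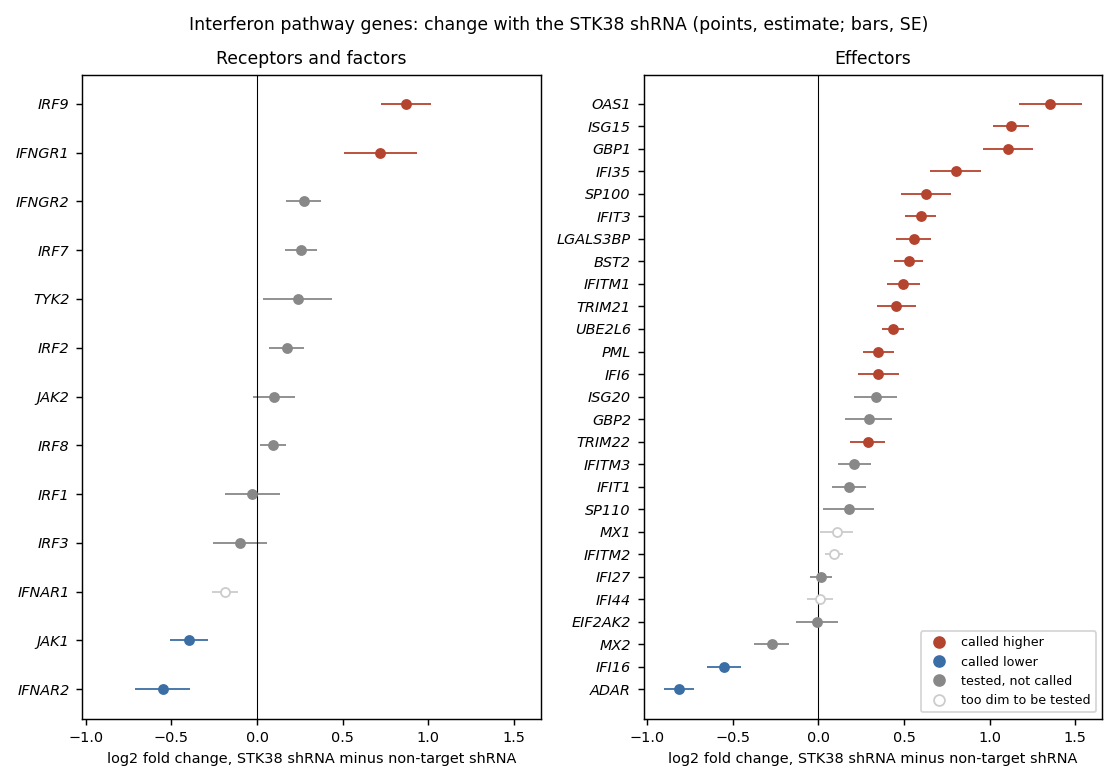
Log2 difference (STK38 shRNA minus non-target shRNA) of the 40 measured interferon pathway genes, with receptors and factors on the left and effectors on the right; points are limma estimates and bars their SE. The effectors run from OAS1 at 1.36 down to ADAR at -0.81, and most called effectors lie right of 0.

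The type I interferon receptor was lower at the chain that could be measured. IFNAR2, its signalling chain, had log2 values of 3.24, 3.13, 2.96, 2.78 and 3.59 in the STK38 shRNA arrays, against 3.72, 3.30, 3.85, 3.91 and 3.66 in the non-target arrays. The groups overlapped through the highest STK38 shRNA array, replicate 5, and the lowest non-target array, replicate 2. The difference was -0.55 (SE 0.16, limma adjusted p = 0.0174). Its other 2 probe sets were called lower as well. One had a difference of -0.87, and the other, above background on 0 STK38 shRNA and 3 non-target arrays, was at least 1.12-fold lower. The call at the main probe set was lost without non-target shRNA replicate 4, with an adjusted p of 0.0512 (range over all alternatives, 0.00187 to 0.0512). IFNAR1, the other chain, was not above background on any array, at 1.23 ± 0.13 in the STK38 shRNA arrays and 1.42 ± 0.13 in the non-target arrays (SD, n = 5 each).

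The interferon gamma receptor was higher at its ligand-binding chain. IFNGR1, which codes for it, had log2 values of 5.17, 4.47, 4.69, 4.62 and 5.01 in the STK38 shRNA arrays, against 4.18, 3.78, 3.58, 3.97 and 4.85 in the non-target arrays. Non-target replicate 5 lay within the range of the STK38 shRNA arrays, and the other non-target arrays lay below it. The difference was 0.72 (SE 0.21, adjusted p = 0.0180), and the call was lost without STK38 shRNA replicate 1 or without non-target shRNA replicate 3, with adjusted p-values up to 0.0537. IFNGR2, the second chain, had 4.94, 4.97, 4.92, 4.83 and 4.91 in the STK38 shRNA arrays, against 4.52, 4.61, 4.76, 4.66 and 4.65 in the non-target arrays. These groups did not overlap, yet the difference of 0.27 (SE 0.10, adjusted p = 0.0547) missed the threshold; it was called in 5 of 18 alternatives, with adjusted p-values from 0.0145 to 0.117 over all of them. Whether both receptors differed in their change was not tested.

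JAK1, the kinase common to both receptors, was lower at each of its 3 probe sets. At the main one the log2 values were 6.63, 6.82, 6.66, 6.78 and 6.71 in the STK38 shRNA arrays, against 7.17, 7.46, 7.15, 7.04 and 6.78 in the non-target arrays, with non-target replicate 5 the one array inside the range of the other group. The difference was -0.40 (SE 0.11, adjusted p = 0.0134), and the other probe sets gave -0.61 without overlap and -0.94. TYK2, the kinase bound to IFNAR1, had 3.69, 3.62, 3.55, 2.45 and 3.29 in the STK38 shRNA arrays, against 3.40, 2.88, 3.05, 3.01 and 3.08 in the non-target arrays. Its lowest and highest values were both in the STK38 shRNA group. The difference of 0.24 (SE 0.20, adjusted p = 0.453) was not called, but without STK38 shRNA replicate 4 it was 0.45 and was called (adjusted p = 0.00672). JAK2, which serves the interferon gamma receptor, was above background on 1 of 10 arrays and had a difference of 0.098 (adjusted p = 0.626).

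Among the members, IRF9 was the 1 transcription factor of 6 measured that was called. Its log2 values were 3.51, 3.30, 4.08, 3.57 and 3.33 in the STK38 shRNA arrays, against 2.74, 2.75, 2.65, 2.81 and 2.50 in the non-target arrays. Every STK38 shRNA array lay above every non-target array, and non-target replicate 5 was below the array background. The difference was 0.87 (SE 0.15, adjusted p = 0.000360), and the two-sided exact permutation test gave 0.00794, the smallest p possible with 5 against 5 arrays. That value follows from the lack of overlap alone, which 22.1% of all probe sets tested showed. IRF7, the inducible factor that amplifies type I interferon production, had a difference of 0.26 (adjusted p = 0.0501; called in 5 of 17 alternatives), but was not above background on any array. IRF8, a factor of germinal centre B cells, was likewise at background on all arrays, with 0.093. The non-target means of IRF7 and IRF8, 1.92 and 1.91, were under the filter of 1.93. Both genes were tested only through their STK38 shRNA means of 2.18 and 2.00, so the calls of IRF7 in alternatives are no support. IRF1, an activator that interferon gamma induces, IRF2, its antagonist, and IRF3, which is phosphorylated downstream of nucleic acid sensors and induces type I interferon, had differences of -0.027, 0.17 and -0.099, with adjusted p-values of 0.930, 0.235 and 0.710. On STK38 shRNA replicate 4 alone, IRF1 and IRF3 stood at 3.11 and 2.57, below the other arrays of that group.

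ISG15 and the enzyme that conjugates it were both higher. ISG15, a ubiquitin-like protein attached to other proteins and also secreted, had log2 values of 7.76, 7.75, 7.84, 7.73 and 7.54 in the STK38 shRNA arrays, against 6.54, 6.35, 6.51, 6.67 and 6.93 in the non-target arrays. The groups were well apart, with a difference of 1.12 (SE 0.11, adjusted p = 2.02e-06), or 2.18-fold. The second ISG15 probe set gave 0.78 (adjusted p = 0.000427), also without overlap. UBE2L6, the conjugating enzyme for ISG15, was at 8.70 ± 0.065 in the STK38 shRNA arrays and 8.27 ± 0.078 in the non-target arrays (SD, n = 5 each), a difference of 0.43 (SE 0.065, adjusted p = 0.000126) without overlap.

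Of the 6 genes for sensing, editing and decay of RNA, OAS1 and IFIT3 were called higher and ADAR lower. OAS1, the oligoadenylate synthetase that activates RNase L, had log2 values of 3.37, 3.22, 3.75, 2.53 and 3.67 in the STK38 shRNA arrays, against 2.04, 1.93, 1.90, 1.94 and 1.97 in the non-target arrays. It exceeded the background on 4 STK38 shRNA arrays and on 0 non-target arrays, so that its measured difference of 1.36 (SE 0.18, adjusted p = 5.08e-05) is given as at least 1.76-fold. A bound of this kind sets the mean of the detected group against the mean, over the arrays of the other, of the higher of signal and background. It depends on the controls chosen: against a lower background without the human reverse-strand controls, OAS1, GBP1 and IFIT3 were above it on 2, 3 and 4 non-target arrays. Arrays of the detected group that were below background enter at their own signal, as STK38 shRNA replicate 4 does for OAS1 and IFIT3. Where the detected group has such arrays, here and for other genes, "at least" is not a strict limit. The second OAS1 probe set was called higher too (adjusted p = 0.000224), but was above background on 1 STK38 shRNA array alone. Its non-target mean of 1.66 was under the filter of 1.93. It was tested only through its STK38 shRNA mean of 2.27, so its call is no independent support. IFIT3, which restricts translation of viral RNA with its relatives, had 2.67, 2.63, 2.81, 2.46 and 2.78 in the STK38 shRNA arrays, against 2.06, 2.21, 1.93, 2.06 and 2.10 in the non-target arrays. Again 4 and 0 arrays were above background, and the difference of 0.60 (SE 0.092, adjusted p = 0.000180) is given as at least 1.13-fold.

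ADAR, which edits adenosine to inosine in double-stranded RNA and so keeps cellular RNA from being sensed, had log2 values of 7.85, 7.62, 7.81, 7.52 and 7.73 in the STK38 shRNA arrays, against 8.48, 8.32, 8.55, 8.61 and 8.62 in the non-target arrays. All STK38 shRNA arrays lay below all non-target arrays, by 0.81 on average (log2 difference -0.81, SE 0.085, adjusted p = 5.00e-06). EIF2AK2, the kinase PKR that halts translation on binding viral RNA, had a difference of -0.0082 (adjusted p = 0.971) at its main probe set and 0.28 (adjusted p = 0.0939) at the other. ISG20, an exonuclease of single-stranded RNA, had 0.33 (adjusted p = 0.0583; called in 6 of 18 alternatives). IFIT1, which binds the 5′ end of viral RNA, was not above background on any array and had 0.18 (adjusted p = 0.206).

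Among the GTPases, GBP1 was called higher. GBP1, a guanylate-binding protein that interferon gamma induces and that coats intracellular pathogens, had log2 values of 3.38, 3.01, 2.84, 3.42 and 3.11 in the STK38 shRNA arrays, against 1.82, 1.94, 1.81, 2.29 and 2.39 in the non-target arrays. It was above background on every STK38 shRNA array and on 0 non-target arrays, so the measured difference of 1.11 (SE 0.15, adjusted p = 4.42e-05) is given as at least 1.58-fold. GBP2, its relative, had 0.29 (adjusted p = 0.130), with its highest value, 3.20, on STK38 shRNA replicate 4. MX2, which blocks nuclear entry of HIV, had -0.27 (adjusted p = 0.0597) and, like MX1, an inhibitor of influenza virus, was not above background on any array. Without non-target shRNA replicate 2 or replicate 3 MX2 was called lower, with adjusted p-values of 0.0447 and 0.0260.

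Membrane proteins that restrict viruses were called higher at BST2, IFITM1 and IFI6. BST2, also called tetherin, which holds budding virus at the cell surface, had log2 values of 7.58, 7.53, 7.64, 7.72 and 7.75 in the STK38 shRNA arrays, against 7.16, 7.16, 6.89, 7.16 and 7.24 in the non-target arrays. The groups did not overlap, and the difference was 0.53 (SE 0.086, adjusted p = 0.000283). IFITM1, which hinders entry of enveloped viruses, was at 6.81 ± 0.11 in the STK38 shRNA arrays and 6.31 ± 0.15 in the non-target arrays (SD, n = 5 each), 0.50 higher (SE 0.0985, adjusted p = 0.00135). Its relative IFITM3 had 0.21 (adjusted p = 0.132), and the IFITM2 probe set was above background on 0 arrays; these close relatives may share probes, so their values are uncertain. IFI6, a mitochondrial protein that counters apoptosis, had 0.35 (SE 0.12, adjusted p = 0.0390), a call lost in 11 of 18 alternatives. IFI27, a relative of IFI6, was at background, with 0.012.

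Of the 6 genes of nuclear bodies, the TRIM family and DNA sensing, 4 were called higher and 1, IFI16, lower. SP100, a scaffold of PML nuclear bodies, had log2 values of 4.66, 4.91, 4.62, 4.14 and 4.63 in the STK38 shRNA arrays, against 3.79, 3.98, 3.80, 4.02 and 4.23 in the non-target arrays. STK38 shRNA replicate 4 lay below the highest non-target array, and the other STK38 shRNA arrays lay above all of them. The difference was 0.63 (SE 0.15, adjusted p = 0.00465); another probe set gave 0.57 and was called, and the last gave -0.040 and was not. PML, which organises these bodies, had 0.35 (adjusted p = 0.00959) at its main probe set, detected on 4 STK38 shRNA and 0 non-target arrays (at least 1.05-fold), while its other 2 tested probe sets, with 0.14 and 0.22, were not called. TRIM21, an antibody receptor inside cells, had 0.46 (adjusted p = 0.00702, at least 1.10-fold, also on 4 and 0 arrays) and TRIM22, a ligase induced by interferon, 0.29 (adjusted p = 0.0480), a call lost in 12 of 18 alternatives. Against the lower background without the human reverse-strand controls, PML and TRIM21 were above it on 5 and 3 non-target arrays. SP110, a relative of SP100, had 0.18 (adjusted p = 0.441).

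IFI16, a sensor of DNA in nucleus and cytosol, was lower. Its log2 values were 6.43, 6.27, 6.34, 6.21 and 6.14 in the STK38 shRNA arrays, against 6.94, 6.69, 6.83, 6.67 and 7.03 in the non-target arrays. The groups did not overlap, and the difference was -0.55 (SE 0.099, adjusted p = 0.000640). ADAR and IFI16 were called lower in each of the 18 alternative fits.

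The remaining induced genes were IFI35, LGALS3BP and IFI44. IFI35, a leucine zipper protein, had log2 values of 3.20, 3.14, 3.25, 2.53 and 3.24 in the STK38 shRNA arrays, against 2.48, 2.39, 2.33, 1.92 and 2.24 in the non-target arrays. STK38 shRNA replicate 4 was close to the highest non-target array and below its own background, and the difference was 0.80 (SE 0.15, adjusted p = 0.000821), with 1 non-target array above background. LGALS3BP, a secreted glycoprotein that binds galectins, had 6.13, 6.22, 6.40, 6.19 and 6.02 in the STK38 shRNA arrays, against 5.48, 5.63, 5.60, 5.66 and 5.80 in the non-target arrays. It was 0.56 higher (SE 0.10, adjusted p = 0.000782) without overlap. IFI44 was not above background on any array.

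**Figure D2:**
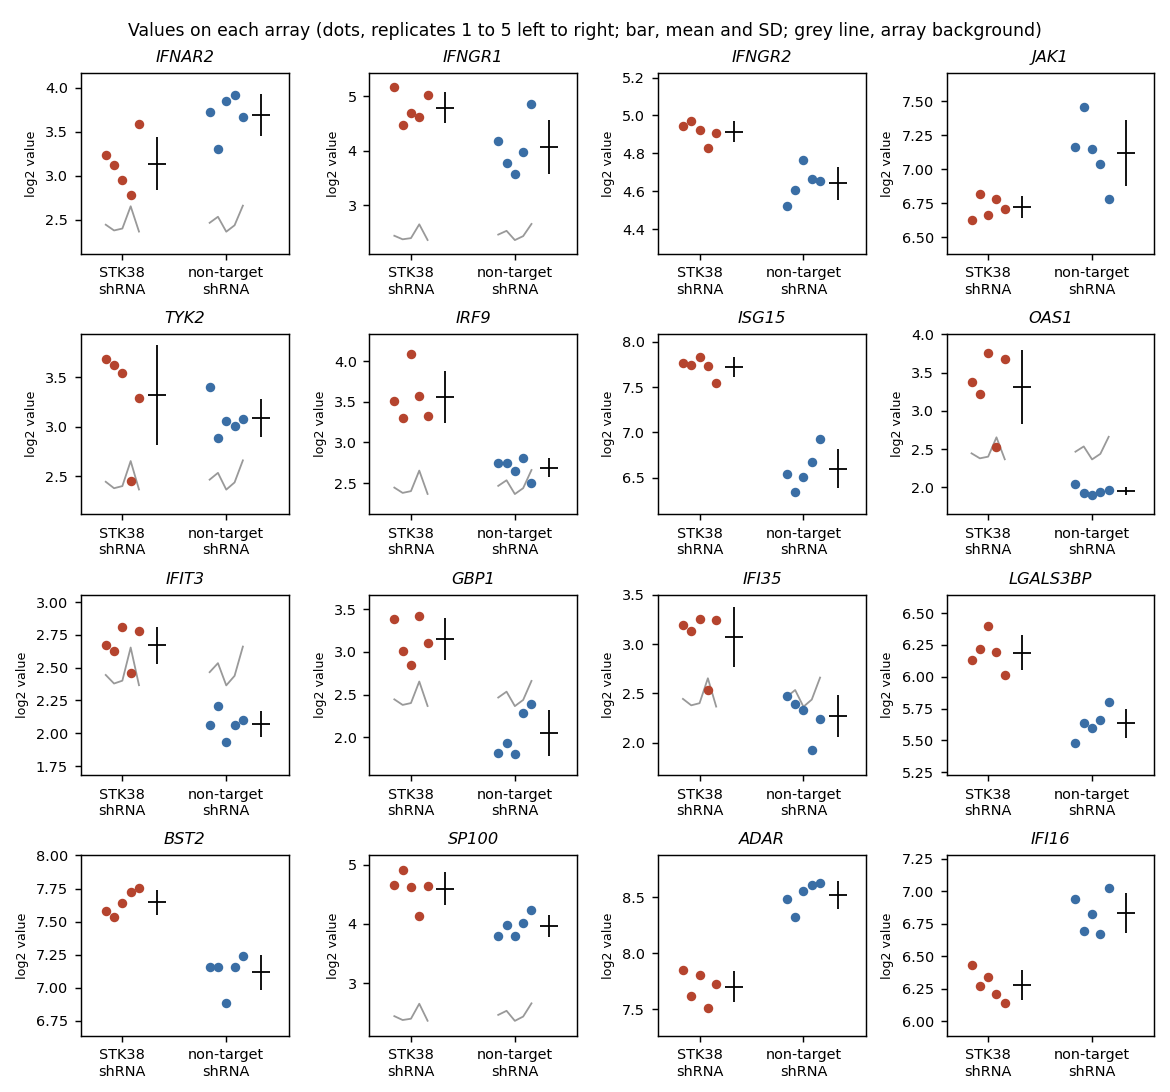
Log2 values on each array for the 16 members described by all of their arrays, STK38 shRNA left and non-target shRNA right in each panel; dots are arrays, black bars the mean and SD (n = 5), and grey lines the array background where it falls in the panel. OAS1, IFIT3 and GBP1 lie below the background line on all non-target arrays, and ADAR and IFI16 lie lower on all STK38 shRNA arrays.

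STK38 shRNA replicate 4 held the lowest value of its group at 20 of the 36 tested members, or 55.6%, and at 48.6% of all probe sets tested. Without it 20 members were called higher and 4 lower, where 20.5% and 16.8% of all probe sets were, and all 20 members called with every array were called again. Of the 19 tested members above background on all 10 arrays, 9 were called higher and 4 lower. Of the 17 others, 7 were called higher and 0 lower. The share of all probe sets called at such brightness was not counted, so this split cannot be read as particular to the members. With the filter at the 60th percentile, 997 of 5023 probe sets were called higher and 1133 lower, a larger share than with the main filter. There, 14 members were called higher and 4 lower.

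**Figure D3:**
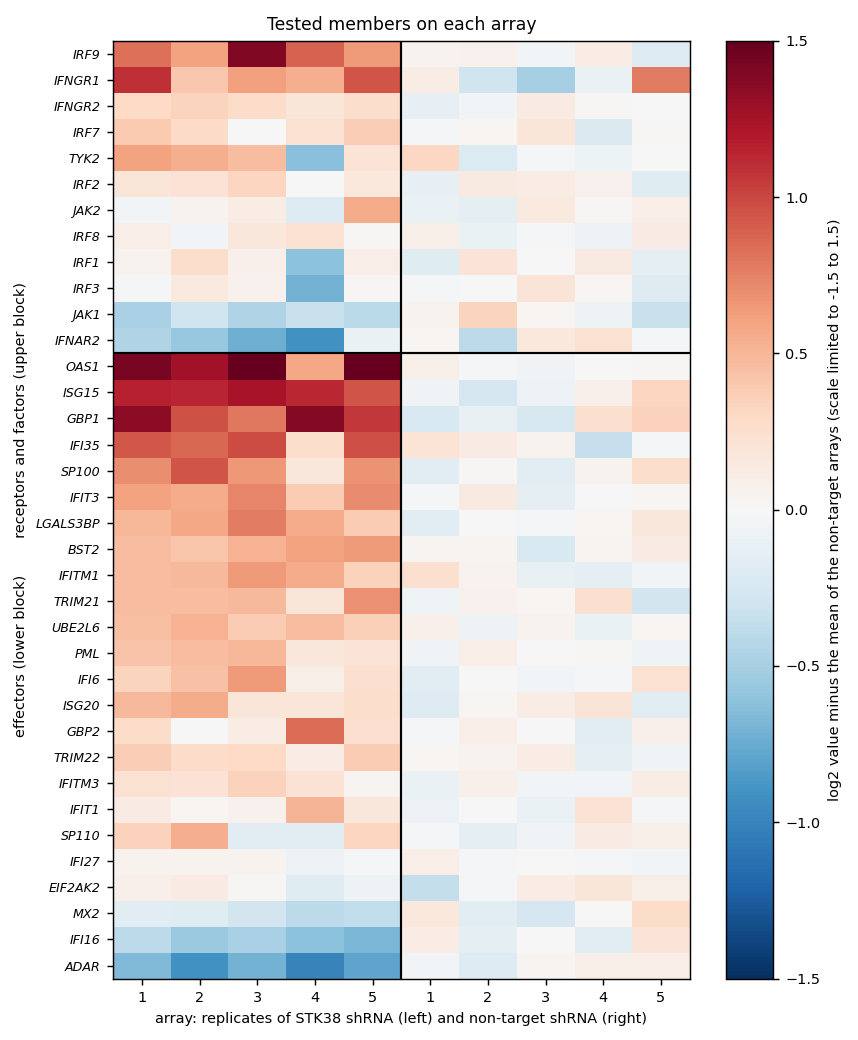
Log2 value of the 36 tested members on each array minus the mean of the non-target arrays, receptors and factors above the horizontal line and effectors below it, STK38 shRNA arrays left of the vertical line and non-target shRNA arrays right of it. OAS1, ISG15 and GBP1 lie above the non-target mean on all 5 STK38 shRNA arrays, and ADAR and IFI16 lie below it on all 5.

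Promoters are shown for 5 of the 6 called effectors with the highest measured log2 differences among those with a listed promoter, so that their interferon response elements can be read next to the values above. They are RefSeq sequences of GRCh38.p14, each the 250 bases before a listed transcription start, on the strand of the gene. ISG15 lies at chr1:1013247-1013496 (+ strand), OAS1 at chr12:112906712-112906961 (+), GBP1 at chr1:89065209-89065458 (- strand), IFI35 at chr17:43006534-43006783 (+), and the second of the 2 starts of IFIT3 at chr10:89332279-89332528 (+). Capitals mark matches to the ISRE core, written as GAAANNGAAA on one strand and TTTCNNTTTC on the other, or to the same core with 1 base between its parts, GAAANGAAA and TTTCNTTTC, a spacing added after OAS1 was seen to lack the first; matches may overlap.
ISG15: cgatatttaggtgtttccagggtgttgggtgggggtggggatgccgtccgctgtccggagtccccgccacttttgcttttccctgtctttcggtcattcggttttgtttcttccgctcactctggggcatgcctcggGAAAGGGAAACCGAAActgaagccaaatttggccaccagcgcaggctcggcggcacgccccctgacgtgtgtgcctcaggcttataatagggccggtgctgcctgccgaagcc
OAS1: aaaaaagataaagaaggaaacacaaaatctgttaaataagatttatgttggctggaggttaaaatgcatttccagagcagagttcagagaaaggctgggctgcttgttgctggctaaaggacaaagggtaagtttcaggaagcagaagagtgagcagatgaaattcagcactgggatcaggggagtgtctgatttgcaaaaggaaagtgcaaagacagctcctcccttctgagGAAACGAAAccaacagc
GBP1: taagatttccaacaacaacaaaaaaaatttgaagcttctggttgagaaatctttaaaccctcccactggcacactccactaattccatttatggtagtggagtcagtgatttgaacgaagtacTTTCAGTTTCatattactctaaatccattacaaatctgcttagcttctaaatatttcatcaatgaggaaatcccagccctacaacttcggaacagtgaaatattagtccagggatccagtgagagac
IFI35: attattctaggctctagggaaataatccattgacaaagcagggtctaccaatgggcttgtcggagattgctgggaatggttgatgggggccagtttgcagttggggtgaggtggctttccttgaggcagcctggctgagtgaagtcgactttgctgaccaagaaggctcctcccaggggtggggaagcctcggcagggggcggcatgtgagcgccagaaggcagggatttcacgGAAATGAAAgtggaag
IFIT3: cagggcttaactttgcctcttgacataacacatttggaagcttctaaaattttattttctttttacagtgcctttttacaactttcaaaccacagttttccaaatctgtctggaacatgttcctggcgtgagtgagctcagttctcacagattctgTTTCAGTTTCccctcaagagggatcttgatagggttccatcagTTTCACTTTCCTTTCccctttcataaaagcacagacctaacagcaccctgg

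In ISG15 a pair of overlapping cores began 113 and 107 bases before the start, and in GBP1 a single core 127 bases before it. In OAS1 and IFI35 the match had the shorter spacing and began 17 and 16 bases before the start. IFIT3 held cores at 94 and 51 bases, the nearer one overlapping a match of the shorter spacing at 45 bases, and its other start had cores at 156 and 122 bases. The order rests on measured values, which for OAS1, GBP1 and IFIT3 are otherwise given as bounds. By its bound of 1.58-fold, GBP1 would come after IFI35, at 1.74-fold. By its bound of 1.13-fold, IFIT3 would come after LGALS3BP, BST2, IFITM1, UBE2L6 and IFI6, and so fall outside the 6. SP100, the remaining one of the 6, had no match at either of its 2 starts. Promoter windows of 300 bases, which also take in the first 50 bases of the transcript, were found for 31 of the 40 measured genes. Among these 31 genes alone, the ISRE core was in a window of 8 of 12 effectors called higher, of 5 of 6 not called and of 2 of 2 too dim to test. The core was in 0 of 2 effectors called lower and in 0 of 9 receptors and factors. Over all 27305 genes with a promoter there, 4.38% had it, and 3.57% of all 35116 windows did. The shorter spacing was in 8 of the 31 members and in 3.87% of all genes. OAS1, for which this spacing was added, is 1 of the 8, so that count is no independent result. The GAS element, written TTCNNNGAA and the same on both strands, was in 9 of the 31 members and in 9.38% of all genes. A match is a run of letters, not a measured binding site.

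The interferon genes themselves were at or near background. Of 12 measured, 11 of them type I and 1 interferon gamma, 0 exceeded the background on any array, and the highest value on any array was 2.48. Against the lower background without the human reverse-strand controls, 9 still exceeded it on 0 arrays, while IFNG did so on 5 STK38 shRNA and 4 non-target arrays, IFNA5 on 0 and 2, and IFNB1 on 1 and 0. The interferon alpha genes are near-identical and may share probes. The 1 gene that passed the filter, IFNG, had a difference of 0.11 (limma adjusted p = 0.365). Interferon protein in the medium was not measured here.

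Other pathway genes, listed from general knowledge with earlier results of these data known, were called about as often as all probe sets: of 50 tested, 8 were called higher and 7 lower (16% and 14%), near the 14.1% and 15.8% of all probe sets. Of 39 further interferon-stimulated genes measured, 26 were tested, of which 4 were called higher and 4 lower (15.4% each), with a median log2 difference of 0.039. The largest called changes were those of RBCK1, a subunit of the linear ubiquitin ligase complex, at -0.75 (adjusted p = 0.000125), TRIM14, an adaptor of RNA sensing, at -0.63 (adjusted p = 0.0165), and TAPBP, which loads peptide on MHC class I, at 0.62 (adjusted p = 5.07e-05). The second probe set of RBCK1 gave -0.067 and was not called. Of 9 sensors and adaptors measured, 7 were tested. MYD88, the adaptor of Toll-like receptors, rose by 0.45 (adjusted p = 0.00694), and IRAK1, the kinase that acts after it, had -0.80 (adjusted p = 7.55e-05).

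Of the 7 other STAT and IRF factors measured, 6 were tested and 3 called. IRF4, a factor of plasma cell differentiation, was at 5.40 ± 0.071 in the STK38 shRNA arrays and 7.06 ± 0.069 in the non-target arrays (SD, n = 5 each), a difference of -1.66 (limma adjusted p = 6.44e-09). Another IRF4 probe set, above background on 0 STK38 shRNA and 4 non-target arrays, was at least 1.25-fold lower, and the last, above it on 0 arrays, was too dim to test. STAT3, which cytokines of the interleukin-6 family activate, was at 3.58 ± 0.087 in the STK38 shRNA arrays and 2.53 ± 0.22 in the non-target arrays (SD, n = 5 each), 1.05 higher (limma adjusted p = 1.23e-05), and its second probe set gave 0.74. STAT6, which interleukin-4 activates, had 0.41 (adjusted p = 0.0420), with 0.49 and no call at its second probe set. Of 12 inhibitors of the pathway measured, 10 were tested. PTPN2, a phosphatase that acts on JAK1, had -0.71 (adjusted p = 0.000107), with differences of -0.089 and -0.095 and no call at its other probe sets, which were above background on 1 and 0 of 10 arrays. PTPN6, the phosphatase SHP-1, was at least 1.19-fold higher (adjusted p = 0.00300), detected on 4 STK38 shRNA arrays and 0 non-target arrays. Its groups overlapped, and it was above the lower background, without the human reverse-strand controls, on 5 arrays of each group.

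**Figure D4:**
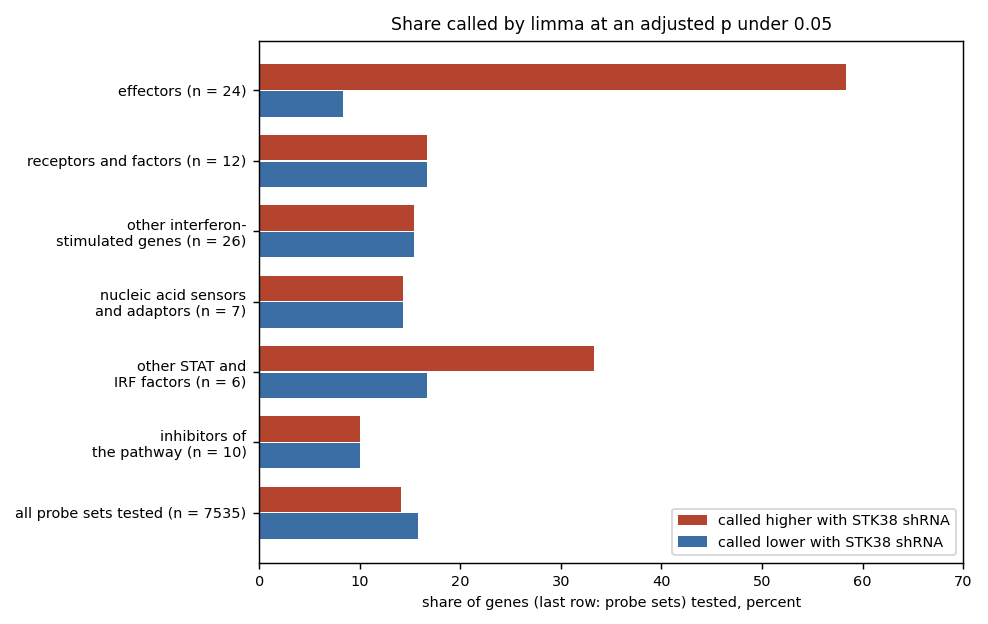
Share of tested genes called higher (red) or lower (blue) with the STK38 shRNA in limma, for the effectors, the receptors and factors, the other pathway lists and, in the last row, all 7535 probe sets tested, in percent. Of the effectors 58.3% were called higher and 8.33% lower; the further interferon-stimulated genes had 15.4% in each direction, against 14.1% and 15.8% of all probe sets.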

How the data were processed

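Total RNA of ST486 cells was hybridised to 1-colour Affymetrix arrays, per the labels. The authors deposited 1 value per probe set and array, 12625 on 10 arrays; per the submitters' processing notes, GCRMA and affy were used (no versions given). The deposited values are taken as log2 from their range and from GCRMA's output scale. They were used as normalized by the authors; GCRMA subtracts a modelled background, which can alter differences of dim genes, and no other summarization was compared. The number of arrays limits the precision.

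Gene names come from the platform's annotation, updated through Entrez identifiers to the RefSeq genes of GRCh38.p14; of 12558 that are not controls, 10943 had 1 gene, 545 several and 1070 none. Probe sets with a mean under the 40th percentile (1.93) were left out, leaving 7535, which were compared with limma 3.58.1 in R 4.3.3 (lmFit and trended eBayes on group alone, with 8 residual degrees of freedom) and Benjamini-Hochberg adjustment at 0.05. Adjusted p-values come from this fit. Background was the 90th percentile of 23 control probe sets on each array. The members and all lists were chosen with earlier results of these data known. All array values were given for members called with an absolute log2 difference of at least 0.5 and for receptors, kinases and IRF9 above background on 5 or more arrays. Of the other lists, up to 3 called genes with the largest differences were named; IFNG and the cell type markers were named after their values were seen. The fit was tested on simulated independent values with few probe sets changed, where large changes were mostly recovered and small ones mostly missed. These data held many more calls and a deviating array, so that recovery does not carry over to them. Alternatives covered the filter, scaling, array weights, variance model, probe set choice, threshold, each array left out in turn and a replicate block. Permutation tests used SciPy 1.17.1 and figures matplotlib 3.10.9.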

Additional observations from a re-analysis of the deposited data

Results flagged for a closer look

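Some arrays lay far from the others of their group, with a gap to the nearest array that took up most of the range of the group; chance gives about 1 such case in 20 groups, and 5 were found in 80 groups of 5 arrays. STK38 shRNA replicate 4 had 3 of them: IRF1 at 3.11, where the other arrays of the group ran from 3.78 to 3.99, IRF3 at 2.57 (others 3.26 to 3.43) and IFI35 at 2.53 (others 3.14 to 3.25). Non-target shRNA replicate 3 had BST2 at 6.89 (others 7.16 to 7.24), and non-target shRNA replicate 1 had IFI27 at 2.02 (others 1.89 to 1.92), where all 5 arrays were below background.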

How the results depend on the processing

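The 16 members called higher and 4 called lower became 13 and 2 at a threshold of 0.01 instead of 0.05. The share of all probe sets called at 0.01 was not counted, so this drop cannot be read as particular to the members. With the filter, scaling, array weights, variance model or probe set choice changed one at a time, 14 to 20 were called higher and 4 lower, and 13 to 20 higher and 3 to 5 lower when single arrays were left out. The counts over all probe sets, given at the end of this paragraph, moved as well, so these ranges cannot be read as particular to the members. The median of the effectors ran from 0.32 to 0.43 and that of the receptors and factors from 0.098 to 0.19 over these settings. Of the 20 called members, 15 were called in each of these fits that tested them; the exceptions were IFNAR2, IFNGR1, IFI6, TRIM22 and PML, the last lost (adjusted p = 0.0836) when the probe sets of a gene were averaged. Of the 16 not called, 5 were called in at least 1 of these fits: IFNGR2, TYK2, IRF7, ISG20 and MX2. Called members did not change sign. Of those not called, 4 did: IRF1 (-0.027) gave 0.068 with array weights and -0.099 to 0.12 over all settings; IRF3 (-0.099) gave -0.16 to 0.053 and JAK2 (0.098) -0.016 to 0.17 as single arrays were left out; EIF2AK2 (-0.0082) gave 0.064 after quantile normalization, 0.14 as the mean of its probe sets and -0.099 to 0.038 without single arrays. The causes were not tested. Of the other pathway genes, 8 were called higher and 7 lower, with 6 to 9 and 6 to 8 over all settings. Arrays with the same replicate number did not deviate together (correlations of -0.214 to 0.192), so the numbers were not taken as pairs; with a replicate block, 14 members were called higher and 4 lower. With the background from 17 controls, without the reverse strand of human ACTB and GAPDH, the members above background on STK38 shRNA arrays alone numbered 1 (IRF8), against 6 with all 23 controls: OAS1, GBP1 and IFIT3 were then above it on 2, 3 and 4 non-target arrays, and their bounds depend on this choice. Over all 7535 probe sets tested, 1064 were called higher and 1192 lower (14.1% and 15.8%, with 47.2% of calls higher). With array weights 1619 and 1351 of the 7535 were called higher and lower (54.5% of calls higher). Without STK38 shRNA replicate 4 the counts were 1548 and 1269 (20.5% and 16.8%, with 55.0% of calls higher). The fewest called higher were 871 of the 7535, with 1145 lower, without STK38 shRNA replicate 2 (43.2% of calls higher). The number of calls over all probe sets thus moved with the setting too.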
